A study of Mus musculus with 77 samples.

Results

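The 10 genes described here handle iron and heme: Hmox1, Fth1, Ftl1, Tfrc, Slc40a1, Slc11a1, Slc11a2, Steap3, Ncoa4 and Cp. They were chosen by name from the gene symbols of the authors' 4 expression tables. Their values were not part of the rule, but earlier results of these data were known. All 10 were found among the 24940 genes listed, and all 10 passed the filter on low values in each table.

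Cells take up iron bound to transferrin through the transferrin receptor (Tfrc), reduce it in the endosome with the reductase Steap3 and move it into the cytosol through the transporter Slc11a2 (DMT1). Iron not in use is stored inside ferritin, a shell built of heavy (Fth1) and light (Ftl1) chains, and Ncoa4 carries ferritin to the lysosome for breakdown. Macrophages also gain iron from the red cells they engulf: heme oxygenase 1 (Hmox1) opens the heme ring, Slc11a1 (Nramp1) moves metal out of the phagosome, ferroportin (Slc40a1) exports iron, and the ferroxidase ceruloplasmin (Cp) oxidises it outside the cell. In the lung, heme oxygenase 1 and ferritin are known as stress-responsive genes, and free iron is known to feed the formation of oxygen radicals.

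The series asked how the myeloid receptor Trem2 and the transcription factor p53 take part in oxygen injury of the newborn lung. Whole lungs came from 14-day-old mice of the strain C57BL/6J (B6), a Trem2 knock out (KO) obtained from the Jackson Laboratory, and the strain DBA/2J (DBA). Pups were kept in room air or, from within 24 h of birth, in 75% oxygen. Bone marrow-derived macrophages (BMDM), which are grown from marrow in culture, came from the same 3 genotypes and spent 24 h in room air or hyperoxia, whose oxygen level for the cells is not in the labels. No other allele, treatment or agent is given for any group. B6 lungs gave 4 room-air and 3 hyperoxia libraries, KO and DBA lungs 4 of each, a second set of B6 lungs (set 2) 2 and 3, and BMDM 2 in each of the 6 groups. The labels do not say which part of Trem2 is missing in the KO, nor that libraries of a group are separate animals or cultures. P-values therefore measure the spread between these libraries, which may be technical.

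Values are the authors' TPM, in which read numbers are divided by transcript length and by the library total. Estimated reads per library were 12.5 to 41.1 M in the first lungs, 7.08 to 8.04 M in set 2 and 14.6 to 47.0 M in BMDM. The B6 lung columns are the same 7 libraries in the KO and the DBA table, so KO minus B6 and DBA minus B6 share their controls. Column names carry a code that reads as a date. B6 hyperoxia lungs share the first code with 2 of the 4 B6 room-air lungs, KO room-air lungs are split between the second and the third code, and all KO hyperoxia lungs carry the third. B6 and KO hyperoxia lungs thus share no code. A date code term links them only through room-air lungs and assumes that a code acts alike in all groups. DBA lungs are balanced over 2 codes of their own. In lung, a DBA minus B6 difference in room air or under hyperoxia therefore cannot be told apart from a difference between codes. All KO and DBA lungs are marked male, whereas 2 B6 room-air lungs and 1 B6 hyperoxia lung are marked female. The 2 female B6 room-air lungs are the 2 that carry the second code, so sex and code cannot be told apart within that group. Subsets of B6 lungs by the first code and by males hold the same 2 room-air libraries. In BMDM, KO and DBA share a code that B6 lack, so a genotype difference from B6 in BMDM and a difference between codes cannot be told apart. In each air, 1 of the 2 B6 BMDM libraries is marked female (F) and the other MF, while all KO and DBA BMDM libraries are marked MF. Trem2 itself was at 908 to 962 TPM in B6 BMDM and at 236 to 252 TPM in KO BMDM. In lung it was at 5.97 to 9.85 TPM in B6 and 1.96 to 2.67 TPM in KO under hyperoxia. The room-air lungs overlapped, at 2.14 to 3.73 TPM in B6 and 1.05 to 2.75 TPM in KO. BMDM expressed all 8 genes of a macrophage list and no erythroid gene of 9 listed above 1 TPM. Summed erythroid TPM in lung ranged from 381 to 6834 in B6 room-air libraries of the first set, from 7885 to 28400 in DBA room-air libraries and from 31000 to 80010 in set 2. In bulk samples, fewer cells of a type and less RNA per cell cannot be told apart.

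The 2 ferritin promoters are shown because both chains rose in B6 and KO lungs and in BMDM of all 3 genotypes, as described below by library. The 100 bases upstream of each listed start are printed 5′ to 3′ on the strand of the gene, from RefSeq on GRCm38.p6. Capitals mark the GC box GGGCGG and the CCAAT box, each on either strand.
Fth1 (chr19:9982546-9982645, plus strand): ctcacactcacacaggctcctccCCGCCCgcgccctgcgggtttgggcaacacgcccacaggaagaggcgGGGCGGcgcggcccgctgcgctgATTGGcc
Ftl1 (chr7:45459887-45459986, minus strand): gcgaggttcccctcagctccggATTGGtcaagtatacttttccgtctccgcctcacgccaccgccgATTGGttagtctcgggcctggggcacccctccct
Both stretches are rich in G and C, at 74.0% in Fth1 and 63.0% in Ftl1. Of 32851 RefSeq promoter windows that run from 250 bases before to 50 bases after a start, 35.7% hold a GC box and 37.4% a CCAAT box on either strand. The core letters of the antioxidant response element, TGACNNNGC, stand in 12.4% of those windows and in neither ferritin window. Among the 15 windows of the 7 members that could be matched, only 1 window, of Ncoa4, holds them, and it does not lie at the start the expression tables list. Hmox1, Slc40a1 and Slc11a2 had no window, and sequence outside the windows was not searched. A match of letters is a description of the sequence and not a measured site.

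Hyperoxia raised Hmox1 and Ftl1 in the lungs of all 3 genotypes and in set 2, and raised Fth1 in B6 and KO. In B6 lungs 3 of the 10 genes rose and 2 fell, against 42.7% of all genes called in that comparison (16.6% higher and 26% lower), so a share near 5 of 10 is close to the background. In KO lungs 5 rose and none fell (background 19.7%, with 10.6% higher and 9.11% lower), and in DBA lungs 4 rose and none fell (background 31%, with 18.6% higher and 12.4% lower). In set 2, 2 rose and none fell (background 4.94%, with 3.13% higher and 1.81% lower). Called means an adjusted p below 0.05 in limma over all genes tested. The median log2 fold change (log2FC) of the 10 genes was 0.07 in B6, 0.31 in KO, 0.24 in DBA and 0.33 in set 2, beside -0.07, 0.01, 0.05 and 0.01 for all genes tested.

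**Figure D1:**
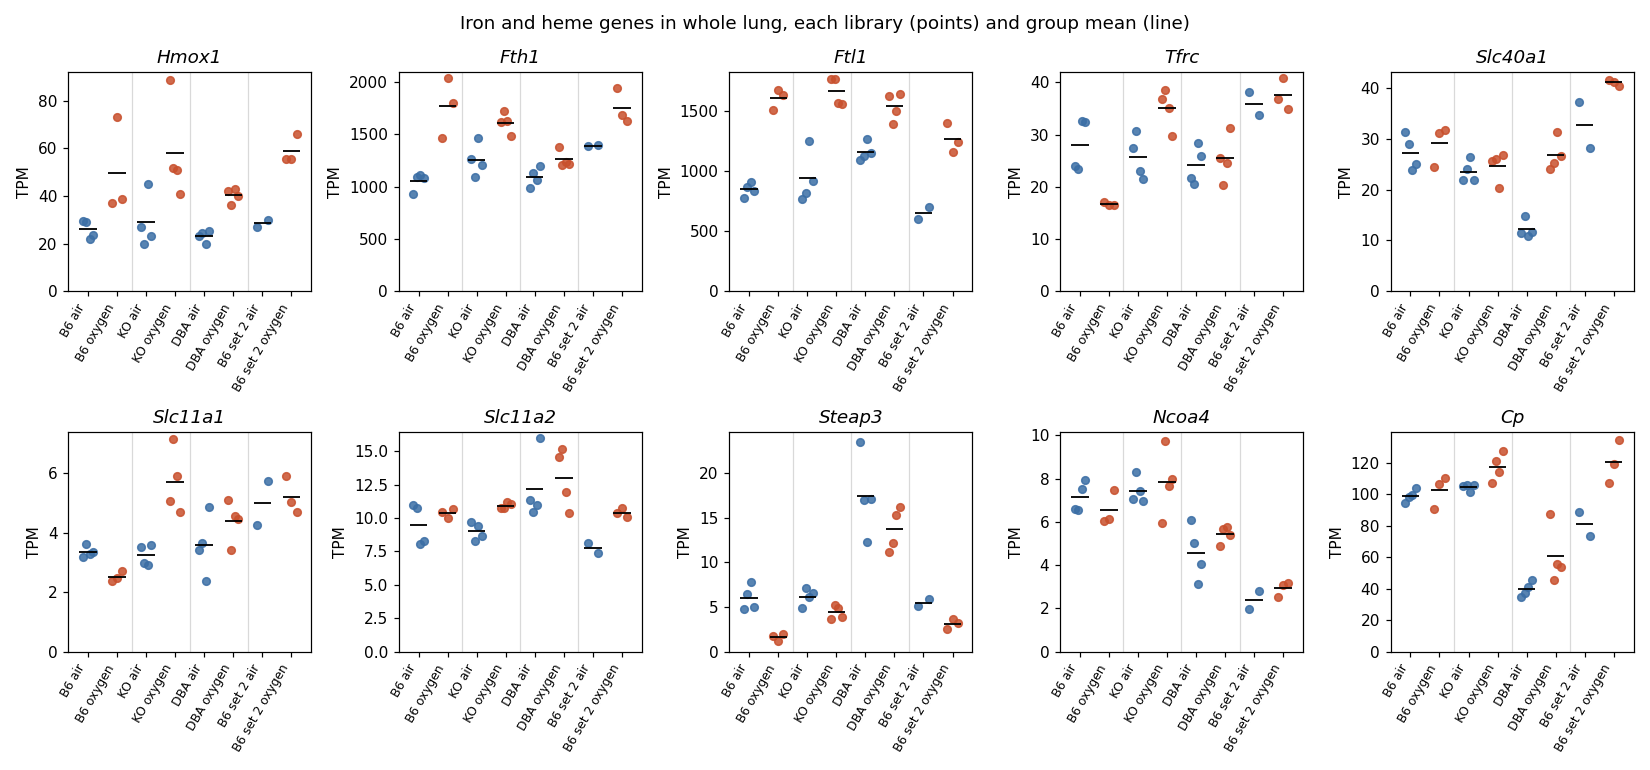
TPM (vertical axis, linear, from 0) of the 10 genes in whole lung, 1 panel per gene, by genotype and air; points are libraries, blue for room air and red for hyperoxia, and the line is the group mean. Hmox1 and Ftl1 lie higher under hyperoxia in each genotype, whereas Tfrc lies lower in B6 hyperoxia lungs (16.5 to 17.2 TPM) and higher in KO hyperoxia lungs (29.8 to 38.6 TPM).

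Hmox1 encodes the stress-inducible heme oxygenase. In B6 lungs it stood at 29.7, 29.2, 22.0 and 23.8 TPM in room air versus 37.1, 73.1 and 38.9 TPM under hyperoxia. The groups did not overlap, but 1 hyperoxia library was well above the other 2. The log2FC was 0.84 ± 0.28 (SE; adjusted p = 0.0262). Without that library it was 0.53 (adjusted p = 0.159), within the first date code 0.67 (adjusted p = 0.104) and in males alone 0.84 (adjusted p = 0.0611). Leaving out either of the room-air lungs numbered 3 and 4 also ended the call (adjusted p = 0.062 and 0.0561). KO lungs held 27.1, 20.0, 45.2 and 23.4 TPM in room air versus 88.7, 51.9, 50.7 and 41.0 TPM under hyperoxia. Here the groups overlapped, and 1 room-air library exceeded 1 hyperoxia library. The log2FC was 0.99 ± 0.26 (SE; adjusted p = 0.0162), and within the third date code it was 0.76 (adjusted p = 0.151). Leaving out KO room-air library 2 or 4 or hyperoxia library 1 gave 0.77 to 0.91 (adjusted p = 0.05 to 0.0535). DBA lungs were the most even, with 23.3, 24.5, 19.7 and 25.2 TPM in room air versus 42.2, 36.3, 43.1 and 39.9 TPM under hyperoxia. Their log2FC was 0.78 ± 0.17 (SE; adjusted p = 0.00338). It was 0.69 within the first DBA code (adjusted p = 0.0566). Set 2 held 26.9 and 30.1 TPM in room air versus 55.6, 55.4 and 65.9 TPM under hyperoxia, a log2FC of 1.02 ± 0.13 (SE; adjusted p = 0.00518). The response did not differ between genotypes beyond its error. The difference from B6 was 0.15 in KO (95% interval -0.68 to 0.97) and -0.06 in DBA (-0.60 to 0.47).

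Ftl1, the ferritin light chain, rose in all 4 lung comparisons. B6 lungs held 779, 863, 912 and 831 TPM in room air versus 1505, 1673 and 1634 TPM under hyperoxia, with no overlap (log2FC 0.92 ± 0.14 SE, adjusted p = 7.67e-05). KO lungs held 769, 815, 1250.5 and 919 TPM against 1765, 1761, 1565 and 1556 TPM (log2FC 0.85 ± 0.13 SE, adjusted p = 0.00037). The KO room-air library at 1250.5 TPM also held the most Hmox1 of its group. DBA lungs started higher, at 1089, 1127, 1267 and 1146 TPM in room air, and reached 1621, 1394, 1498 and 1644 TPM under hyperoxia. The DBA rise was 0.41 ± 0.10 (SE; adjusted p = 0.00809), which was 0.51 smaller in log2FC than that of B6 (-0.51, adjusted p = 0.0213). Without the B6 hyperoxia library with the highest ferritin, this difference was -0.48 (adjusted p = 0.051). Within each DBA code alone the rise was 0.44 and 0.38 (adjusted p = 0.2 and 0.0957), from 2 libraries a group, and with quantile normalization 0.25 (adjusted p = 0.0667). In set 2 Ftl1 went from 604 and 701 TPM to 1400.2, 1160.3 and 1240.2 TPM (log2FC 0.96 ± 0.15 SE, adjusted p = 0.0103). Without the lower of the 2 room-air libraries of set 2 the log2FC was 0.85 (adjusted p = 0.0581).

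Fth1, the heavy chain that carries the ferroxidase centre of ferritin, rose in B6 and KO lungs. Its B6 libraries held 929, 1097, 1115 and 1083 TPM in room air versus 1469, 2041 and 1800.3 TPM under hyperoxia (log2FC 0.74 ± 0.13 SE, adjusted p = 0.000256). KO libraries held 1268, 1096, 1468 and 1203 TPM in room air versus 1619, 1721, 1626 and 1485 TPM under hyperoxia. The highest KO room-air library lay just under the lowest hyperoxia library (log2FC 0.36 ± 0.12 SE, adjusted p = 0.0384). The KO call ended within the third date code (0.28, adjusted p = 0.131), and also without KO room-air libraries 1, 2 or 4 or hyperoxia libraries 1, 2 or 3 (0.30 to 0.37). In DBA, Fth1 held 988 to 1198 TPM in room air versus 1208 to 1383 TPM under hyperoxia, a log2FC of 0.21 ± 0.12 (SE; adjusted p = 0.215). In set 2 it was 1388 and 1393 TPM against 1944, 1681 and 1624 TPM, a log2FC of 0.33 ± 0.15 (SE; adjusted p = 0.256). The DBA response was smaller than that of B6 by 0.53 (-0.53, adjusted p = 0.0376), a call that ended without B6 room-air library 1, 2 or 4, B6 hyperoxia library 2 or 3, DBA room-air library 3 or 4, or DBA hyperoxia library 2, 3 or 4 (-0.55 to -0.42, adjusted p = 0.0535 to 0.107). The ratio of Fth1 to Ftl1 TPM was 1.19 to 1.30 in B6 room-air lungs and 0.98 to 1.22 under hyperoxia. In KO it went from 1.17 to 1.65 down to 0.92 to 1.04, and in set 2 from 1.99 to 2.30 down to 1.31 to 1.45.

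Among the genes of transferrin iron uptake, the oxygen response of Tfrc and Steap3 differed between genotypes. That of Slc11a2 did not differ beyond error, by 0.13 for KO minus B6 (95% interval -0.17 to 0.44) and -0.03 for DBA minus B6 (-0.49 to 0.42). Tfrc, the transferrin receptor, was at 24.0, 23.3, 32.6 and 32.4 TPM in B6 room-air lungs and at 17.2, 16.5 and 16.6 TPM under hyperoxia. It fell there, with no overlap (log2FC -0.69 ± 0.14 SE, adjusted p = 0.000811), and within the first date code alone the log2FC was -0.47 (adjusted p = 0.0148). In KO lungs it went the other way, from 27.5, 30.7, 23.1 and 21.6 TPM to 36.9, 38.6, 35.0 and 29.8 TPM (log2FC 0.44 ± 0.13 SE, adjusted p = 0.0239). Within the third date code the KO value was 0.62 (adjusted p = 0.0103), whereas leaving out room-air library 3 or 4 or hyperoxia library 1 or 2 gave 0.36 to 0.42 (adjusted p = 0.0574 to 0.0805). The 2 responses differed by 1.14 ± 0.19 (SE; adjusted p = 0.000529), and by 1.10 with date code as a term (adjusted p = 0.00021). DBA lungs held 20.6 to 28.4 TPM in room air versus 20.3 to 31.2 TPM under hyperoxia (log2FC 0.07, adjusted p = 0.75). The DBA response differed from that of B6 by 0.76 ± 0.21 (SE; adjusted p = 0.0128), and by 0.56 in males alone (adjusted p = 0.0993). In set 2, Tfrc was at 38.1 and 33.7 TPM in room air versus 36.8, 40.8 and 35.0 TPM under hyperoxia. The fall seen in the first B6 lungs was not seen in set 2, whose log2FC was 0.06 (95% interval -0.23 to 0.35).

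Steap3, the endosomal ferrireductase, gave the largest change of the 10 genes in B6 lungs. It stood at 4.74, 6.45, 7.82 and 5.00 TPM in room air versus 1.77, 1.14 and 1.98 TPM under hyperoxia (log2FC -1.41 ± 0.18 SE, adjusted p = 1.73e-05). All 3 hyperoxia libraries were below all room-air libraries, and within the first date code the log2FC was -1.33 (adjusted p = 0.007). KO lungs held 4.89 to 7.09 TPM in room air versus 3.62 to 5.28 TPM under hyperoxia, a log2FC of -0.41 ± 0.16 (SE; adjusted p = 0.0928). DBA lungs, listed with another Steap3 transcript, held 12.3 to 23.5 TPM in room air versus 11.1 to 16.2 TPM under hyperoxia (log2FC -0.31, adjusted p = 0.23). In set 2 it was at 5.07 and 5.88 TPM in room air versus 2.53, 3.62 and 3.26 TPM under hyperoxia (log2FC -0.65, adjusted p = 0.0876). All 4 estimates lay below 0, and only the first B6 lungs passed the test. The KO response exceeded that of B6 by 1.00 ± 0.24 (SE; adjusted p = 0.00679), or by 0.88 with date code as a term (adjusted p = 0.0553). The DBA response exceeded it by 1.14 ± 0.28 (SE; adjusted p = 0.00766). The tables list 2 Steap3 transcripts, 1 for the B6 and KO lungs together and the other elsewhere, so its TPM are not on one scale across tables. The same holds for Slc11a2 between lung and BMDM, which are listed with different transcripts of 4355 and 3004 bases. The log2FC given here each come from within a table.

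Slc11a1 was low in whole lung and rose under hyperoxia in KO. C57BL/6 mice are known to carry a loss-of-function change in this gene and DBA/2 mice the functional form. KO lungs held 3.52, 2.99, 2.90 and 3.57 TPM in room air versus 5.05, 7.13, 5.89 and 4.68 TPM under hyperoxia (log2FC 0.65 ± 0.12 SE, adjusted p = 0.00183). All KO hyperoxia libraries were above all KO room-air libraries. B6 lungs held 3.18 to 3.62 TPM in room air versus 2.38 to 2.72 TPM under hyperoxia (log2FC -0.31, adjusted p = 0.0667). The responses of KO and B6 differed by 0.95 ± 0.18 (SE; adjusted p = 0.0012), and by 0.97 with date code as a term (adjusted p = 0.00843). A list of 8 macrophage genes was counted in the same lungs. Of these, 5 fell and 2 rose in B6 lungs, 2 fell and 1 rose in KO, and 4 had a higher and 1 a lower response in KO than in B6. Their summed TPM was 2639 to 5188 in B6 room air, 1838 to 2096 in B6 hyperoxia, 5034 to 6490 in KO room air and 2805 to 3548 in KO hyperoxia. Their part in the Slc11a1 result was not tested. In DBA, Slc11a1 was at 2.36 to 4.85 TPM in room air versus 3.41 to 5.09 TPM under hyperoxia, and in set 2 at 4.27 to 5.75 and 4.70 to 5.89 TPM. Neither passed the test. Its relative Slc11a2 stayed between 7.35 and 16.0 TPM in all lungs and was called in none of the 4 oxygen comparisons (log2FC 0.09 to 0.38).

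Slc40a1, ferroportin, and Cp both rose in DBA lungs. Slc40a1 was at 11.4, 14.8, 10.8 and 11.7 TPM in DBA room air and at 24.1, 25.2, 31.4 and 26.6 TPM under hyperoxia. The 4 hyperoxia libraries all lay above the room-air ones (log2FC 1.08 ± 0.12 SE, adjusted p = 4.29e-05). Within the 2 DBA codes the log2FC was 0.87 (adjusted p = 0.0566) and 1.29 (adjusted p = 0.00586). In B6 it was at 31.3, 29.1, 23.8 and 25.0 TPM against 24.5, 31.1 and 31.8 TPM, and in KO at 21.8 to 26.4 TPM against 20.3 to 26.8 TPM. Neither changed detectably (log2FC 0.09 and 0.06). The DBA response exceeded that of B6 by 0.99 ± 0.18 (SE; adjusted p = 0.00128). Cp, the ferroxidase, went from 34.4, 37.3, 40.9 and 45.6 TPM to 87.1, 45.4, 55.5 and 53.8 TPM in DBA (log2FC 0.57 ± 0.15 SE, adjusted p = 0.0103). These groups just overlapped, and 1 hyperoxia library stood apart. The DBA minus B6 difference of the Cp response was 0.52 (adjusted p = 0.0891). Within the 2 codes Cp gave 0.80 (adjusted p = 0.151) and 0.33 (adjusted p = 0.0485). In set 2, Cp was at 88.5 and 73.2 TPM in room air versus 107.2, 119.0 and 134.4 TPM under hyperoxia, which missed the threshold (log2FC 0.57, adjusted p = 0.0565). Ncoa4, the ferritin cargo receptor, was at 1.99 to 9.77 TPM in all lungs and called in no oxygen comparison (log2FC -0.11 to 0.23).

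**Figure D2:**
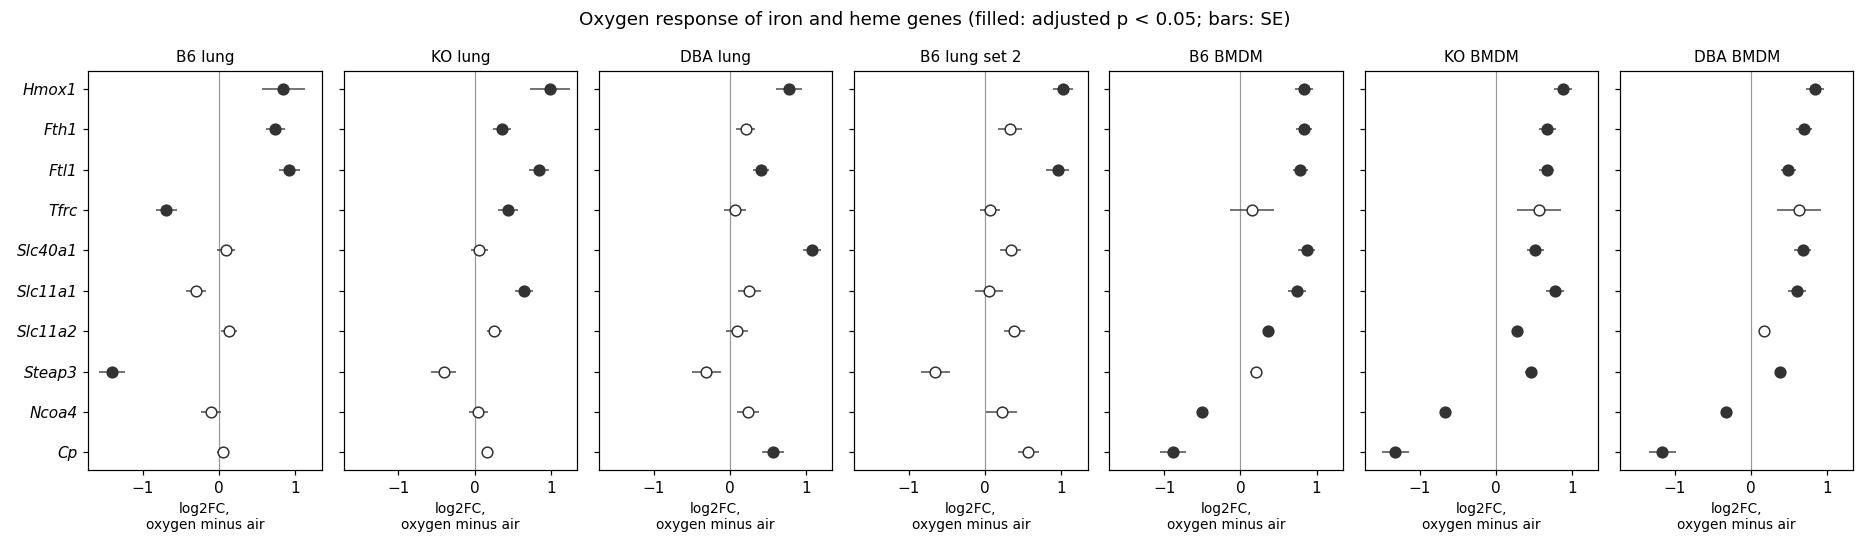
Log2 fold change of hyperoxia minus room air on the log2(TPM + 1) scale (horizontal axis) for the 10 genes in 4 lung and 3 BMDM comparisons; bars are 1 SE and filled points have an adjusted p below 0.05. Hmox1 and Ftl1 are filled in all 7 panels, Tfrc lies at -0.69 in B6 lung and 0.44 in KO lung, and Ncoa4 and Cp lie below 0 in BMDM alone with filled points.

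Other markers moved with oxygen in the same lungs. Of 8 proliferation genes, 4 rose in B6, 7 in KO, 8 in DBA and 5 in set 2, and none fell. In DBA, 5 of 6 alveolar type 2 genes and 4 of 5 neutrophil genes tested also rose, while alveolar type 2 genes fell in 2 of 6 cases in B6 and 3 of 6 in KO. Endothelial genes fell in 4 of 5 cases in B6, 3 of 5 in KO and 2 of 5 in set 2, and in DBA 1 rose and 1 fell. Lymphocyte genes fell in 3 of 6 cases in B6, 4 in KO, 1 in DBA and 2 in set 2. Summed erythroid TPM under hyperoxia was 805 to 1933 in B6 and 2888 to 3720 in KO, where room-air libraries held 381 to 6834 and 5738 to 6662. In DBA it was 3178 to 11050 under hyperoxia and 7885 to 28400 in room air. The part of these lists in the changes of the 10 genes was not tested.

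In room air, B6 and KO lungs did not differ in any of the 10 genes, against 0.0769% of all genes called. The smallest unadjusted p was 0.0482, for Fth1, with a log2FC of 0.25 ± 0.12 (SE; adjusted p = 0.588). The 95% interval of the KO minus B6 difference was -0.48 to 0.64 for Hmox1 and -0.39 to 0.15 for Tfrc. Under hyperoxia 3 of 10 were higher in KO and none was lower (background 37.2%, with 22% higher and 15.2% lower). Tfrc was higher by 1.02 ± 0.14 (SE; adjusted p = 4.85e-05), Steap3 by 1.05 ± 0.18 (SE; adjusted p = 0.000317) and Slc11a1 by 0.91 ± 0.13 (SE; adjusted p = 7.01e-05). With date code as a term Tfrc kept its call (0.94, adjusted p = 0.00659), while Steap3 (0.80, adjusted p = 0.209) and Slc11a1 (0.95, adjusted p = 0.0519) did not. The hyperoxia lungs of KO and B6 share no code, so this term rests on room-air lungs and on codes acting alike in all groups. Without that assumption, genotype and code cannot be told apart here. The oxygen response was higher in KO than in B6 for these 3 genes and lower for none (background 25.3%, with 16.4% higher and 8.98% lower).

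DBA and B6 lungs differed already in room air in 5 of the 10 genes, 2 higher and 3 lower in DBA. Of all genes 56.4% were called, 21.5% higher and 34.8% lower. Date code and strain cannot be told apart in this comparison or in the one under hyperoxia. Ferroportin was at 10.8 to 14.8 TPM in DBA and 23.8 to 31.3 TPM in B6 (log2FC -1.10 ± 0.12 SE, adjusted p = 3.4e-06). Ceruloplasmin was at 34.4 to 45.6 TPM in DBA and 94.4 to 103.6 TPM in B6 (log2FC -1.31 ± 0.15 SE, adjusted p = 4.52e-06). Both proteins of iron export thus had lower transcripts in DBA, in all 4 libraries against all 4. Ncoa4 was lower too (-0.57 ± 0.14 SE, adjusted p = 0.00349), and Steap3 (1.23 ± 0.19 SE, adjusted p = 6.92e-05) and Ftl1 (0.45 ± 0.10 SE, adjusted p = 0.00183) were higher. Among males alone, Ncoa4 (-0.47, adjusted p = 0.125) and Ftl1 (0.49, adjusted p = 0.0515) were no longer called. Under hyperoxia the ferroportin gap was -0.11 (95% interval -0.40 to 0.17), while Cp remained lower in DBA (-0.79 ± 0.16 SE, adjusted p = 0.00103) and Steap3 higher (2.37 ± 0.21 SE, adjusted p = 5.36e-07). Tfrc (0.56) and Slc11a1 (0.60) were then higher in DBA and Fth1 lower (-0.48), so that 5 of 10 were called in all (background 46.1%, with 23.3% higher and 22.8% lower). Without the B6 hyperoxia library that holds the most Fth1, its gap was -0.37 (adjusted p = 0.0523). For the response itself 3 of 10 were higher and 2 lower in DBA (background 29.2%, with 20% higher and 9.2% lower). In room air, 7 of 8 macrophage genes, 5 of 6 alveolar type 2 genes and 8 of 8 proliferation genes were lower in DBA lungs, and 3 of 8 erythroid genes tested were higher. Their part in the 5 calls was not tested. Reads of all strains were placed on mm10, a C57BL/6J genome, and the part of this in the DBA values was not tested.

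In BMDM, hyperoxia raised 6 and lowered 2 of them in B6 (background 28.5%, with 5.68% higher and 22.8% lower), raised 7 and lowered 2 in KO (background 23.3%, with 6.88% higher and 16.4% lower), and raised 6 and lowered 2 in DBA (background 18.8%, with 5.73% higher and 13% lower). Among the genes that rose, Hmox1, Fth1, Ftl1, Slc40a1 and Slc11a1 were called in each genotype. Ncoa4 and Cp fell in each. The median log2FC of the 10 genes was 0.55 in B6, 0.55 in KO and 0.55 in DBA, while that of all genes tested was -0.13, -0.08 and -0.06. Erythroid genes were near 0 in these cells, at a summed 0 to 0.845 TPM. Proliferation genes fell in 8 of 8 cases in B6, 5 of 8 in KO and 6 of 8 in DBA, and macrophage genes fell in 6, 5 and 5 of 8. Neutrophil genes fell in 4 of 4 cases tested in B6 and in KO. Fibroblast genes fell in 4 of 4 cases in KO and in DBA, from a summed 85.5 to 107 TPM to 24.2 to 31.7 TPM in KO and from 74.8 to 88.5 TPM to 29.3 to 32.8 TPM in DBA. Their part in the changes below was not tested.

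**Figure D3:**
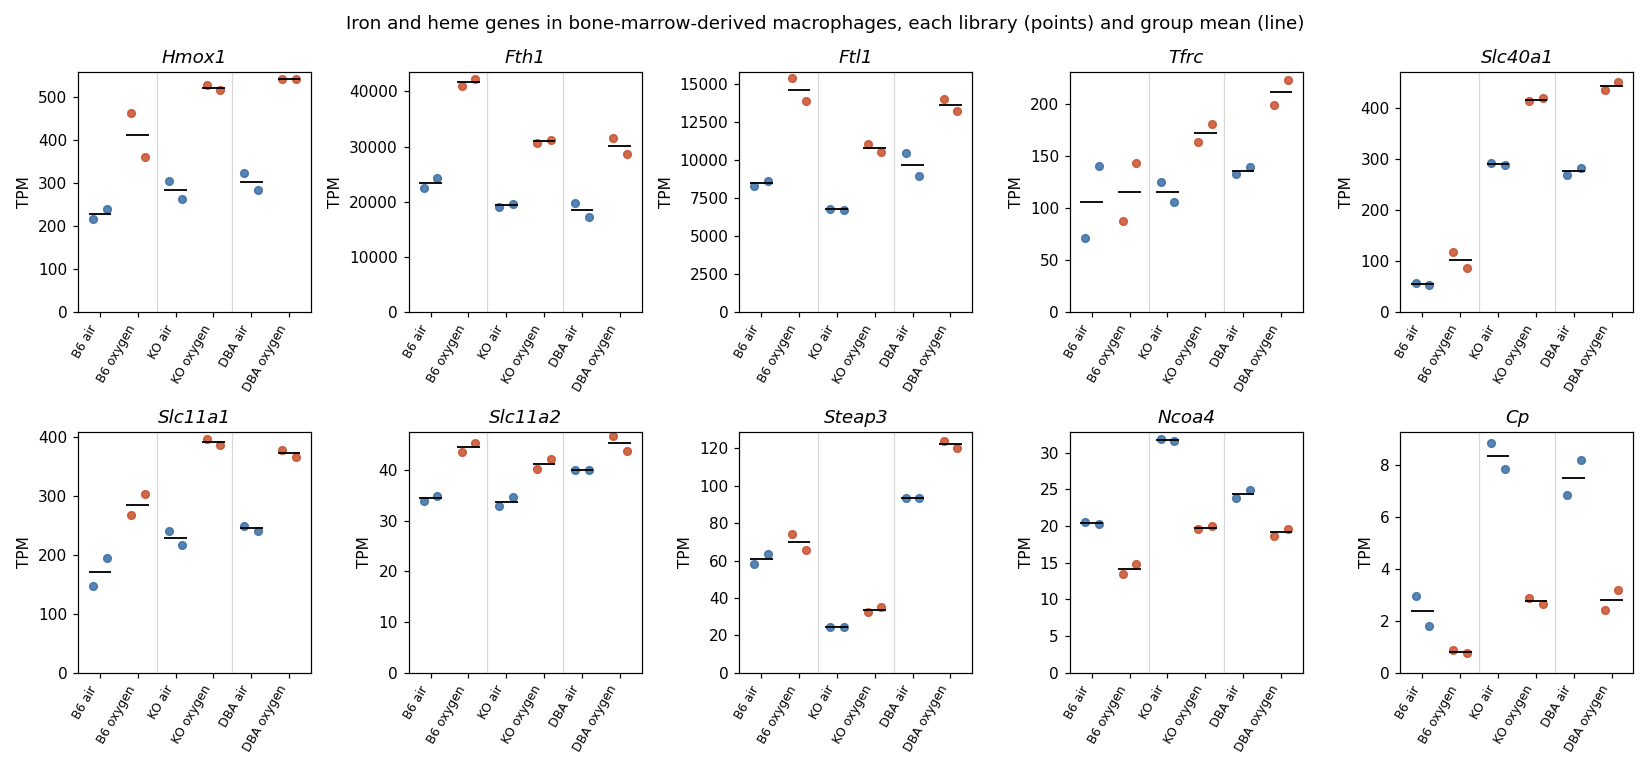
TPM (vertical axis, linear, from 0) of the 10 genes in BMDM, 1 panel per gene, by genotype and air; points are the 2 libraries of a group, blue for room air and red for hyperoxia, and the line is their mean. Hmox1, Fth1, Ftl1, Slc40a1 and Slc11a1 lie higher under hyperoxia in each genotype, and Slc40a1 in KO and DBA (269 to 452 TPM) lies above B6 (52.8 to 117 TPM).

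Ferritin made up a large part of the macrophage transcriptome. Fth1 and Ftl1 together took 4.89 to 6.00% of the listed TPM in room air and 7.83 to 10.2% under hyperoxia, compared with 0.32 to 0.68% in lung. Fth1 stood at 22479.8 and 24355 TPM in B6 room air and at 40981 and 42303 TPM under hyperoxia (log2FC 0.83 ± 0.11 SE, adjusted p = 0.000618). In KO it went from 19100.4 and 19615 to 30735 and 31214 TPM (0.68, adjusted p = 0.00188), and in DBA from 19879 and 17335 to 31533 and 28677 TPM (0.70, adjusted p = 0.00225). The heavy chain thus rose in each genotype with no overlap between airs. Ftl1 went from 8320.4 and 8638 to 15353 and 13865 TPM in B6 (0.78 ± 0.10 SE, adjusted p = 0.000538). In KO it went from 6796 and 6733 to 11020.4 and 10529 TPM (0.67, adjusted p = 0.0013). In DBA it went from 10481 and 8926 to 13975 and 13221 TPM (0.49, adjusted p = 0.00787). The Ftl1 response of DBA did not differ from that of B6 beyond error (-0.29, 95% interval -0.60 to 0.02). With quantile normalization the order turned: Ftl1 gave 0.38 in B6 (adjusted p = 0.112) and 0.75 in DBA (adjusted p = 0.0087), a difference of 0.38 (adjusted p = 0.434). That method sets a value by its rank within the library, so these Ftl1 values follow changes of rank and not of measured TPM. Leaving out DBA room-air library 2 or hyperoxia library 1 ended the Ftl1 call in DBA (0.38 and 0.45, adjusted p = 0.0644 and 0.0671). Rescaling each library to its total without the 2 ferritin genes kept the calls of both in all 3 genotypes. Fitting all genes with no filter on low values widened the SE of Fth1 to 0.54, and then neither chain was called.

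Hmox1 was at 216 and 239 TPM in B6 room-air BMDM and at 461 and 359 TPM under hyperoxia (log2FC 0.84 ± 0.12 SE, adjusted p = 0.00103). In KO it was at 304 and 262 TPM against 526 and 514 TPM (0.88, adjusted p = 0.000816). In DBA it was at 323 and 283 TPM against 541 and 540.2 TPM (0.84, adjusted p = 0.00152). The rise was of like size in lung and macrophages, whose tables were fitted separately and not tested against each other. Blvrb, which encodes a biliverdin reductase, also rose in B6 BMDM, from 194 ± 6.70 to 372 ± 22.4 TPM (SD, n = 2; log2FC 0.94 ± 0.07 SE, adjusted p = 4.45e-05). Slc11a1 is strongly expressed in macrophages. Its values were 148 and 195 TPM against 267 and 303 TPM in B6, a log2FC of 0.74 ± 0.11 (SE; adjusted p = 0.00166). KO held 239 and 216 TPM against 395 and 386 TPM (0.78, adjusted p = 0.00139), and DBA 249 and 239.9 TPM against 377 and 366 TPM (0.60, adjusted p = 0.0065).

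Ferroportin rose from 57.2 and 52.8 to 117 and 86.9 TPM in B6 (log2FC 0.87 ± 0.11 SE, adjusted p = 0.000652). KO held 293 and 289 TPM against 414 and 420.4 TPM (0.52 ± 0.11 SE, adjusted p = 0.00906), and DBA 269 and 284 TPM against 435 and 452 TPM (0.68 ± 0.11 SE, adjusted p = 0.00316). The groups did not overlap in any genotype. The KO call was lost when any 1 of its 4 libraries was left out (0.51 to 0.53, adjusted p = 0.0508 to 0.0615). Cp fell from a low level, from 2.96 and 1.81 to 0.87 and 0.74 TPM in B6 (log2FC -0.88 ± 0.17 SE, adjusted p = 0.00521). It fell from 8.86 and 7.85 to 2.88 and 2.63 TPM in KO (-1.32, adjusted p = 0.000771) and from 6.83 and 8.19 to 2.42 and 3.20 TPM in DBA (-1.16, adjusted p = 0.00203). Ferroportin and the ferroxidase that assists export thus went in opposite directions in these cells. Ncoa4, which delivers ferritin for breakdown, fell as the ferritins rose, from 20.6 and 20.3 to 13.4 and 14.9 TPM in B6 (-0.50 ± 0.07 SE, adjusted p = 0.000675). In KO it fell from 31.9 and 31.7 to 19.5 and 20.0 TPM (-0.66, adjusted p = 0.000196). In DBA it fell from 23.9 and 24.9 to 18.7 and 19.5 TPM (-0.33, adjusted p = 0.00754), a call lost without DBA hyperoxia library 1 (-0.30, adjusted p = 0.0611).

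Of the transferrin uptake genes, Slc11a2 rose from 33.9 and 34.9 to 43.5 and 45.4 TPM in B6 (log2FC 0.36 ± 0.06 SE, adjusted p = 0.00214) and from 32.9 and 34.6 to 40.2 and 42.2 TPM in KO (0.28, adjusted p = 0.00787). The KO call ended without room-air library 1 or hyperoxia library 2 (0.25 in both, adjusted p = 0.0724 and 0.0743). In DBA it was at 39.97 and 39.87 TPM against 46.7 and 43.6 TPM (0.17, adjusted p = 0.0688). Steap3 rose in KO, from 24.3 and 24.2 to 32.4 and 35.0 TPM (0.46 ± 0.07 SE, adjusted p = 0.00173), and in DBA, from 93.5 and 93.6 to 124 and 120.5 TPM (0.38, adjusted p = 0.00564). In B6 it was at 58.1 and 63.4 TPM against 74.0 and 65.9 TPM (0.20, adjusted p = 0.0604). Tfrc was called in none of the 3 genotypes. B6 held 71.6 and 141 TPM in room air versus 87.5 and 143 TPM under hyperoxia, with the library marked female the higher of each pair. KO held 125 and 106 TPM against 163 and 181 TPM (0.57, adjusted p = 0.185), and DBA 133 and 139 TPM against 199 and 223 TPM (0.63, adjusted p = 0.162). The wide B6 spread enters the shared error of this fit. With only the 2 groups compared in the fit, Tfrc was called in KO (adjusted p = 0.00332) and DBA (adjusted p = 0.0042). No gene of the 10 differed between genotypes in its oxygen response in BMDM, where 1.45% of all genes did for KO minus B6 and 0.974% for DBA minus B6. At an unadjusted p below 0.05, Steap3 in KO was the only one of the 20 differences (0.26, 95% interval 0.03 to 0.48).

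Ferroportin and ceruloplasmin were far higher in KO and DBA BMDM than in B6 BMDM in room air. The Slc40a1 difference was 2.38 ± 0.11 (SE; adjusted p = 4.48e-07) for KO and 2.31 ± 0.11 (SE; adjusted p = 2.91e-07) for DBA. The Cp difference was 1.49 ± 0.17 (SE; adjusted p = 0.000104) and 1.35 ± 0.17 (SE; adjusted p = 0.000143). In all, 4 members were higher and 2 lower in KO (background 49.1%, with 33.9% higher and 15.3% lower), and 7 higher and 1 lower in DBA (background 56.8%, with 40.7% higher and 16.2% lower). Under hyperoxia the counts were 5 and 3 in KO (background 50.3%, with 38.1% higher and 12.2% lower) and 7 and 1 in DBA (background 60.6%, with 46.6% higher and 14% lower). Date code and genotype cannot be told apart in these 4 comparisons. All 4 fibroblast genes tested were higher in KO and in DBA than in B6, where their summed level was 0.428 to 0.611 TPM in room air, beside 85.5 to 107 TPM in KO and 74.8 to 88.5 TPM in DBA. Their part in the differences was not tested. All 8 proliferation genes were lower in both KO and DBA than in B6 in room air, and 5 of 8 in both under hyperoxia.

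KO and DBA BMDM share their date code and were compared directly, a comparison added after the values were seen. In room air 1 of the 10 genes was higher in KO and 3 were lower (background 25.1%, with 10.1% higher and 15.1% lower). Slc40a1 (0.07, 95% interval -0.18 to 0.33) and Cp (0.14, -0.25 to 0.53) did not differ beyond error. Steap3 was at 24.2 and 24.3 TPM in KO and 93.5 and 93.6 TPM in DBA, a log2FC of -1.91 ± 0.07 (SE; adjusted p = 8.15e-08). Under hyperoxia it was -1.83 ± 0.07 (SE; adjusted p = 1.13e-07). Ftl1 was lower in KO in both airs, by 0.52 (-0.52, adjusted p = 0.00415) and by 0.34 (-0.34, adjusted p = 0.0351). The second of these was lost without any 1 of the 4 libraries (adjusted p = 0.111 to 0.192). Slc11a2 was lower in room air (-0.24, adjusted p = 0.0164), a call lost without DBA library 2 or either KO library (adjusted p = 0.0516 to 0.124), and Ncoa4 was higher (0.37, adjusted p = 0.00282). Under hyperoxia 2 of 10 were lower in KO, Steap3 and Ftl1, and none was higher (background 21.7%, with 7.82% higher and 13.9% lower). Against B6, Steap3 was lower in KO (-1.29 ± 0.07 SE, adjusted p = 1.07e-06) and higher in DBA (0.62 ± 0.07 SE, adjusted p = 6.53e-05).

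**Figure D4:**
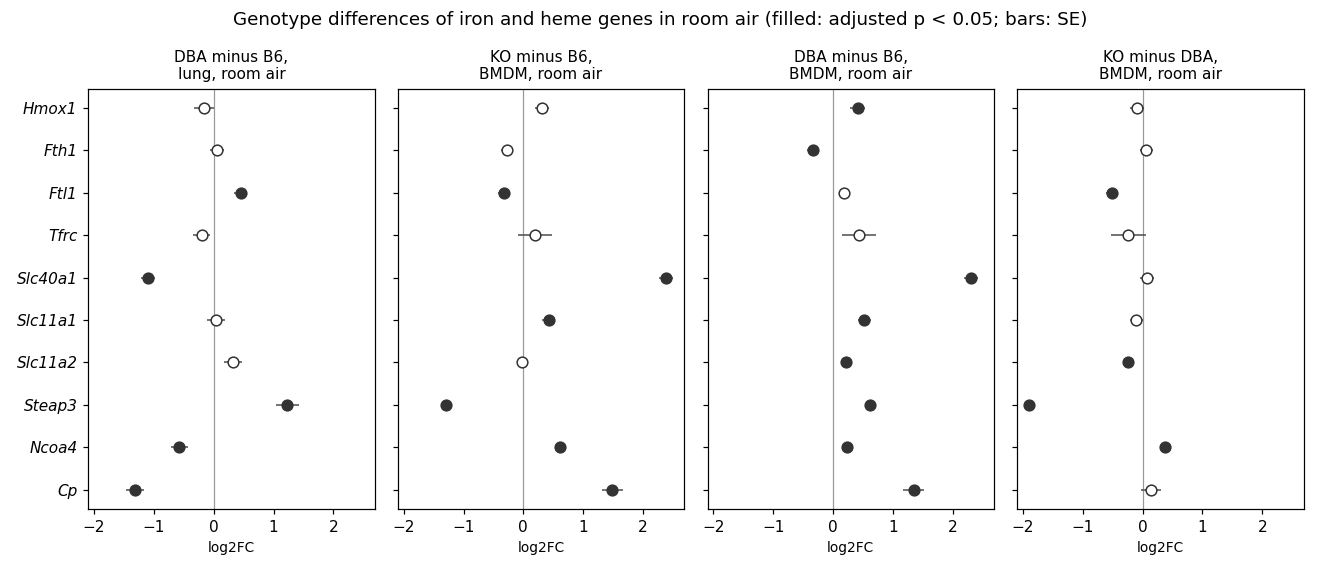
Genotype differences of the 10 genes in room air as log2 fold change on the log2(TPM + 1) scale (horizontal axis); bars are 1 SE and filled points have an adjusted p below 0.05. Slc40a1 lies at -1.10 for DBA minus B6 in lung and at 2.31 in BMDM, and near 0 for KO minus DBA in BMDM, where Steap3 lies at -1.91. In the differences from B6 shown, genotype and date code cannot be told apart.

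Ferroportin and ceruloplasmin thus had opposite signs in the 2 sample types. DBA minus B6 in room air was -1.10 and -1.31 in lung and 2.31 and 1.35 in BMDM, in tables that were fitted separately, and the difference between sample types was not tested. Strain and date code cannot be told apart in either sample type. In BMDM, KO differed from B6 in the same direction as DBA for both genes, as given above. In room air the summed macrophage TPM was 707 to 1127 in DBA lungs and 2639 to 5188 in B6 lungs, and its part in the lung values was not tested.

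A list of 53 other genes of iron and heme handling was counted beside the 10. Only called genes among the 4 largest log2FC of a comparison are named. A gene not named for a genotype, here or in the next paragraph, may still be called there. In B6 lungs 13 rose and 7 fell of 48 tested, beside 16.6% of all genes higher and 26% lower. In KO lungs 8 rose and 3 fell of 48 (10.6% and 9.11% of all genes), and in DBA lungs 13 and 9 of 49 (18.6% and 12.4%). In set 2, 4 rose and 1 fell of 48 (3.13% and 1.81%). The heme synthesis enzyme gene Uros fell in B6 lungs from 7.17 ± 0.68 TPM (SD, n = 4) to 2.26 ± 0.42 TPM (SD, n = 3; log2FC -1.33 ± 0.14 SE, adjusted p = 2.54e-06). Bmp6, a ligand that induces hepcidin in the liver, fell in B6 (-1.13), KO (-0.75) and set 2 (-1.27). Cd163, the scavenger receptor for hemoglobin bound to haptoglobin, rose in B6 (1.09). The haptoglobin gene Hp rose in KO (0.94) and set 2 (0.96). Nfe2l2, which encodes the oxidative stress regulator NRF2, fell in B6 lungs from 95.5 ± 4.70 to 57.8 ± 12.1 TPM (SD, n = 4 and 3; log2FC -0.74 ± 0.11 SE, adjusted p = 7.07e-05). Under hyperoxia it was higher in KO than in B6 by 0.88 ± 0.11 (SE; adjusted p = 2.31e-05), lungs that share no date code. Genotype and code cannot be told apart in this value. In DBA, Lcn2, the siderophore-binding lipocalin, rose by 2.05 and the mitochondrial iron importer Slc25a37 fell by 1.23 on the log2 scale. Of 5 neutrophil genes tested, 4 rose in the same lungs, and their part in the Lcn2 value was not tested. Of 8 erythroid genes tested, 1 fell and 0 rose in these DBA lungs, with a median log2FC of -1.22. Their part in the Slc25a37 value was not tested.

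In room air, Alad, an enzyme of heme synthesis, was higher in DBA than in B6 lungs by 1.71 ± 0.11 (SE; adjusted p = 1.47e-08). Strain and date code cannot be told apart here. In BMDM, 4 of 39 rose and 12 fell in both B6 and KO, and 4 rose and 7 fell in DBA. Of all genes, 5.68% rose and 22.8% fell in B6, 6.88% and 16.4% in KO, and 5.73% and 13% in DBA. Hfe, a regulator of the transferrin receptor and hepcidin, fell in B6 (-1.02) and DBA (-0.98). Cd163 fell in KO (-1.26) and DBA (-1.28). Trf, which encodes transferrin, was higher than in B6 BMDM in room air by 1.46 in KO and 1.53 in DBA, and Alas1 was lower by 1.43 in KO (-1.43) and by 1.85 in DBA (-1.85). For these too, genotype and date code cannot be told apart. For the whole list the median log2FC in B6 was 0.02 in lung and -0.13 in BMDM, beside -0.07 and -0.13 for all genes tested.

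Genes with the most similar pattern were found by the root mean square difference of log2(TPM + 1) after centring each gene on its mean. Over the 15 B6 and KO lung libraries, Slc7a11, the cystine importer, was nearest to Hmox1 (0.226). The lysosome-related gene Creg1 was nearest to Ftl1 (0.145), Osmr to Fth1 (0.126), Tmx2 to Tfrc (0.129), Fam212b to Slc11a1 (0.112) and Zfp14 to Steap3 (0.192). The members' own spread around their mean was 0.602 for Hmox1, 0.472 for Ftl1 and 0.318 for Fth1 on the same scale. Over the 12 BMDM libraries Creg1 was nearest both to Hmox1 (0.107) and to Slc11a1 (0.0892). Nearest to the others were Atp6v1c1, a subunit of the lysosomal proton pump, for Fth1 (0.111), March9 for Ftl1 (0.113), Txndc16 for Ncoa4 (0.0654) and Ptchd1 for Steap3 (0.24). For Slc40a1 it was Clec4n (0.356), and for Cp Il16 (0.185). The distances are descriptions over libraries that share groups and date codes.

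Chromatin immunoprecipitation located p53 on the genome of lung and BMDM. The authors' 10 lists, 1 per group with its replicates combined, give each 200-base peak a score that is its tag number scaled to 10000000 tags. Lists ran from 134 to 4107 peaks on 3.99 to 33.0 M tags. A peak missing from a shallow list may be absent or not detectable at its depth, which was not tested. Within 10 kb of the starts of the 10 genes lay 7 peaks, all near the 2 ferritin genes. A site found in several lists counts once per list. The share of all genes with a peak this near was not counted, so the number has no background beside it. The strongest lay 6.70 kb upstream of Ftl1 at chr7:45466481-45466681 in B6 hyperoxia BMDM, with a score of 200 and rank 35 of 3500. At nearly the same place were peaks in B6 room-air BMDM (score 62, rank 44 of 4107), KO hyperoxia BMDM (score 23, rank 89 of 1320) and B6 hyperoxia lung (score 13, rank 47 of 235). These 4 peaks lie 0.31 to 0.35 kb from the start of Bax and inside that gene, a p53 target of the cell death pathway, and thus nearer to Bax than to Ftl1. B6 room-air BMDM had another peak 2.37 kb downstream of the Ftl1 start (score 44). Fth1 had 2 peaks in B6 hyperoxia BMDM, 7.50 kb (score 26) and 4.19 kb upstream (score 28). The printed 100-base ferritin promoters hold none of these peaks. No p53 peak lay within 10 kb of the other 8 genes, Hmox1 included. KO BMDM peaks were called against B6 input, per the file headers, and KO ChIP samples carry a B6 genotype tag and were grouped by title.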

How the data were processed

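The deposited tables hold TPM made by the authors with HOMER after STAR alignment; the submitters' processing notes name mm10 as the build and give no versions. The deposited peak lists hold a HOMER score per peak, which per the file headers is a tag number scaled to 10000000 tags, on replicates combined by the authors. TPM times transcript length gave whole multiples of 1 read for 100% of values (tolerance 0.15), and from this the reads per library were estimated. The deposited TPM of listed transcripts sum to 529199 to 605692 per library.

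Tests used log2(TPM + 1), and fold changes on this scale understate those of low genes. A gene was tested if it reached 1 TPM in 3 libraries (first lungs) or 2 libraries (set 2 and BMDM), which left 15614 genes for B6 and KO lungs, 15623 for B6 and DBA lungs, 14636 for set 2 and 12320 for BMDM. The test was limma's (version 3.58.1, run under R 4.3.3) with a variance trend, on a mean for every group of a table. Benjamini-Hochberg adjustment ran over all genes of each of 19 comparisons and 2 added after seeing the data. Scripts were tested on simulated data. The 10 members are always named, and other iron genes only where called and among the 4 largest log2FC of a comparison. Members and lists were chosen with earlier results of these data known. Alternatives were quantile normalization, a pseudocount of 0.1, no filter, only the groups compared, each library left out, date code or sex as a term or subset, a replicate block and, added after seeing the data, a total without ferritin. Replicate numbers were not used as pairs, since same-numbered BMDM libraries deviated together with a correlation of 0.38 in B6 (by sex mark), -0.05 in KO and 0.08 in DBA.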

Additional observations from a re-analysis of the deposited data

Results flagged for a closer look

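In 3 of 50 groups of 4 libraries, 1 library lay far from the others, where chance alone flags about 1 in 20. Fth1 was at 929 TPM in 1 B6 room-air lung, whose nearest neighbour was at 1083 TPM. Fth1 was at 1383 TPM in 1 DBA hyperoxia lung, with the next at 1236 TPM. Slc11a2 was at 16.0 TPM in 1 DBA room-air lung, with the next at 11.3 TPM.

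The oxygen response differed between genotypes, by the test of the difference itself, for these genes in lung. KO minus B6 was 1.14 for Tfrc, 1.00 for Steap3 and 0.95 for Slc11a1. DBA minus B6 was 0.99 for Slc40a1, 0.76 for Tfrc, 1.14 for Steap3, -0.51 for Ftl1 and -0.53 for Fth1. Both sets use the same B6 libraries. No explanation was tested.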

How the results depend on the processing

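Over all members, comparisons and alternatives, 1020 of 1151 values of called results kept their call, 131 lost it, and 37 of 1509 values of uncalled results gained one, with 0 changes of direction among called values. In numbers of members called, KO lung under hyperoxia went from 5 to 3 both with date code as a term and within the third date code. KO minus B6 lung under hyperoxia went from 3 to 5 with quantile normalization and to 1 with date code as a term. DBA lung went from 4 to 0 within the first DBA code. DBA minus B6 lung went from 5 to 3 in males alone in room air, and for the response from 5 to 3 in males alone and with no filter. Set 2 went from 2 to 1 with no filter. B6 BMDM went from 8 to 5 with only the groups compared. KO minus B6 BMDM under hyperoxia went from 8 to 5 with no filter. DBA minus B6 BMDM in room air went from 8 to 5 with quantile normalization and with only the groups compared. KO minus DBA BMDM under hyperoxia went from 2 to 1 with no filter. The subsets hold fewer libraries; otherwise the cause was not tested.

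Leaving out 1 library at a time gave 2 to 5 members in KO lung (2, Ftl1 and Slc11a1, without room-air library 4 or hyperoxia library 1, and 3 without room-air library 2 or hyperoxia library 2), 3 to 6 in the DBA minus B6 lung response (3 without B6 hyperoxia library 2), 1 to 2 in set 2, 0 to 1 in the KO minus B6 BMDM response (Slc40a1, without B6 hyperoxia library 2), 5 to 7 in DBA minus B6 BMDM under hyperoxia and 1 in KO minus DBA BMDM under hyperoxia. Where it left 1 library in a group, that library is assumed to vary like the others. With quantile normalization Fth1 has a log2FC of 0 in BMDM by construction, since it is the most abundant gene in each library. With a replicate block, Tfrc was called in KO BMDM (0.57, adjusted p = 0.00455) and DBA BMDM (0.63, adjusted p = 0.00362) and Slc11a2 in DBA BMDM (0.17, adjusted p = 0.0343), while no other member's call changed. No paired analysis was possible because lung numbers restart within each date code. Peaks near the members went from 7 within 10 kb to 0 within 1 kb and 21 within 50 kb. Depth limits set 2, with 45 to 107 estimated reads for Steap3, 50 to 79 for Ncoa4 and 61 to 87 for Slc11a1, and Cp in BMDM, with 63 reads in the lowest library.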
